A study of Mus musculus with 9 samples.

Results

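The genes of regenerating skeletal muscle were followed in mouse fracture callus: the satellite cell factor Pax7, the determination factors Myf5 and Myod1, the differentiation factors Myog and Myf6, the fusion gene Mymk, the developmental myosins Myh3, Myh8 and Myl4, and the adhesion molecule Ncam1. They were taken from the expression table by gene symbol and are 10 of its 22054 genes, each with 1 row. The names were chosen by role, with the levels and fold changes of these same libraries known, so their differences between groups are given as descriptions. mRNA was sequenced from callus collected on day 7 after the left femur of male C57BL/6J mice had been fractured surgically and pinned. The labels name the tissue only as bone and give an age of 7 weeks. All mice carried the fracture and the pin, and all were injected into the peritoneum every day for 1 week with 200 μl of fluid, starting the day after surgery. The H-151 group received 750 nmol of this inhibitor of STING, the adaptor protein of cytosolic DNA sensing, the SR-717 group received 30 mg/kg of this STING activator, and the PBS group received buffer alone. Each group had 3 libraries, no unfractured bone and no dissected muscle were included, and the labels do not say whether 1 library is 1 mouse, so p-values measure only the spread between these libraries, which may be technical.

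Adult muscle is repaired by satellite cells, stem cells that lie under the sheath of each fibre and carry Pax7. After injury they divide with Myf5 and Myod1 active, then turn to Myog, leave the cell cycle and fuse through Mymk into new fibres. New fibres first make the embryonic and perinatal heavy chains Myh3 and Myh8 and the embryonic light chain Myl4, and later replace them with the adult fast chains Myh1, Myh2 and Myh4, as developing limb muscle does. A fractured femur lies within thigh muscle, so callus can hold fibres and their repair cells beside cartilage, bone and marrow.

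The 9 libraries held between 16987398 and 23272480 expected counts. On the first principal component, which carried 46.6% of the variance, SR-717 replicate 1 stood at 100.6 and PBS replicate 1 at 38.8, against -28.8 to -4.03 for the other 7. The same 2 libraries had the highest summed TPM (a transcript level corrected for gene length and depth) of 10 inflammatory genes, 3602 and 874, against 38.2 to 183 in the others, and the lowest of Col2a1, the collagen of cartilage, at 17.1 and 336 against 986 to 4317. On the second component, which carried 22.9%, PBS replicate 3 stood apart at -67.4. It also had the lowest summed TPM of 23 mature fast muscle genes, 9843 against 17802 to 52163. For the members, the main changes without one of these libraries, or without SR-717 replicate 3, which had the highest sum, are given below.

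Myl4 was the most abundant of the 10 transcripts per length and Myf5 the least. Over the 9 libraries the mean level was 169 ± 39.2 TPM for Myl4 (SD, n = 9), 34.2 ± 12.4 TPM for Myog, 20.5 ± 3.29 TPM for Ncam1, 17.2 ± 7.67 TPM for Myf6 and 16.4 ± 6.27 TPM for Myh8. The lower levels were 11.2 ± 3.69 TPM for Mymk, 10.0 ± 4.31 TPM for Myod1, 8.99 ± 2.87 TPM for Myh3, 0.518 ± 0.281 TPM for Pax7 and 0.154 ± 0.158 TPM for Myf5. Some neighbours in this order changed places between libraries: Ncam1 was above Myf6 in 5 of 9 libraries, Myf6 above Myh8 in 6, Mymk above Myod1 in 7 and Myod1 above Myh3 in 6. Myl4 was above Myog, Myh8 above Mymk, Myh3 above Pax7 and Pax7 above Myf5 in 9 of 9 libraries. Genes of each stage were detected, Myf5 barely, with Myog, Myf6 and Mymk far above the stem cell factor Pax7. The cells that carried these transcripts were not identified.

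The levels that follow are in CPM, counts scaled to library size with TMM factors, which compare 1 gene between libraries. Pax7, the transcription factor that marks satellite cells, was at 0.785, 1.92 and 1.67 CPM in H-151 replicates 1 to 3, at 0.628, 2.45 and 0.618 CPM in PBS and at 0.878, 1.92 and 3.21 CPM in SR-717. The 3 groups overlapped, and the libraries numbered 1 held 11 to 17 expected counts each. Its fitted log2 fold change was 0.44 ± 0.56 (SE) for SR-717 against H-151, 0.68 ± 0.72 for SR-717 against PBS and 0.21 ± 0.65 for H-151 against PBS. The first was -0.06 without SR-717 replicate 3, and the others were 0.36 and -0.10 without PBS replicate 3.

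Myf5 was barely detected. Its expected counts were 3, 8 and 1 in H-151, 1, 7 and 0 in PBS and 1, 1 and 8 in SR-717, and the count of 0 in PBS replicate 3 allows up to 0.169 CPM for counting error alone. It was the only member that did not pass the filter on low counts, so no fold change was fitted for it. Its neighbour Myf6 lies 6718 bp away with no protein-coding gene between them, at chromosome 10, 107492853 to 107494737 against 107482908 to 107486134 for Myf5 (GRCm38, minus strand). The summed expected count was 30 for Myf5 and 2102 for Myf6 over the 9 libraries.

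Myod1, which commits cells to the muscle lineage, was at 8.34, 10.9 and 8.89 CPM in H-151, at 8.05, 16.6 and 3.60 CPM in PBS and at 7.54, 11.5 and 15.0 CPM in SR-717. PBS held both its highest and its lowest library, and the groups overlapped. The log2 fold changes were 0.27 ± 0.28, 0.27 ± 0.56 and -0.01 ± 0.50 for SR-717 against H-151, SR-717 against PBS and H-151 against PBS. Without PBS replicate 3 the last 2 were -0.12 and -0.40.

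Myog, the factor that starts terminal differentiation, was at 29.5, 28.6 and 28.5 CPM in H-151, at 22.8, 37.5 and 11.2 CPM in PBS and at 20.4, 27.3 and 41.9 CPM in SR-717. The H-151 libraries lay close together, inside the range of both other groups. Its log2 fold changes in the same order were 0.04 ± 0.27, 0.32 ± 0.48 and 0.27 ± 0.39. Without SR-717 replicate 3 the first was -0.28, and without PBS replicate 3 the others were -0.02 and -0.07.

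Myf6, also called MRF4, acts late in differentiation and persists in adult fibres. It was at 9.71, 9.37 and 14.0 CPM in H-151, at 7.82, 14.3 and 2.98 CPM in PBS and at 10.0, 19.6 and 18.7 CPM in SR-717. SR-717 replicates 2 and 3 were above every other library and SR-717 replicate 1 lay among the H-151 libraries. The log2 fold changes were 0.54 ± 0.31 for SR-717 against H-151, 0.94 ± 0.57 for SR-717 against PBS and 0.39 ± 0.52 for H-151 against PBS. In edgeR the first of these was 0.79 without SR-717 replicate 1 (unadjusted p of 0.00884) and 0.37 without SR-717 replicate 2 (unadjusted p of 0.336). The second was 1.57 without PBS replicate 2 (unadjusted p of 0.0375) and 0.54 without PBS replicate 3 (unadjusted p of 0.259), and the third was -0.01 without PBS replicate 3.

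Mymk encodes myomaker, the membrane protein that myoblasts need to fuse. It was at 9.17, 7.89 and 7.45 CPM in H-151, at 7.82, 10.1 and 2.75 CPM in PBS and at 8.16, 9.67 and 12.0 CPM in SR-717. PBS replicate 3 was the low library and the other 8 lay between 7.45 and 12.0 CPM. The log2 fold changes were 0.27 ± 0.21, 0.53 ± 0.47 and 0.25 ± 0.44 for the comparisons in the order above, and without PBS replicate 3 the last 2 were 0.15 and -0.13.

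Myh8 was the member with the clearest difference between groups. This perinatal heavy chain was at 42.6, 37.0 and 40.7 CPM in H-151, at 61.4, 52.1 and 19.0 CPM in PBS and at 79.1, 75.7 and 81.9 CPM in SR-717. Every SR-717 library was above every H-151 and every PBS library, and PBS replicates 1 and 2 lay above the H-151 group while PBS replicate 3 lay below it. The means were 78.9 ± 3.14 CPM in SR-717, 40.1 ± 2.85 CPM in H-151 and 44.2 ± 22.3 CPM in PBS (SD, n = 3 each).

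The log2 fold change of Myh8 for SR-717 against H-151 was 0.97 ± 0.12 with an unadjusted p of 0.000131 in edgeR's quasi-likelihood test, which ranked Myh8 1 of 14151 genes. Its Benjamini-Hochberg adjusted p over all these genes was 0.996, and DESeq2's Wald test gave an adjusted p of 7.44e-11 for the same libraries. Across 11 alternatives the fold change stayed between 0.91 and 1.01, and with all 9 libraries in 1 edgeR fit the unadjusted p was 0.0244 and the rank 58. For SR-717 against PBS the log2 fold change was 0.84 ± 0.41 with an unadjusted p of 0.0852 and an adjusted p of 1. Without PBS replicate 1 it was 1.15 with an unadjusted p of 0.047, without PBS replicate 3 it was 0.48 with an unadjusted p of 0.0392, and with all 9 libraries in 1 fit it was 0.84 with an unadjusted p of 0.045. The replicate block gave 0.99 for SR-717 against PBS, with an unadjusted p of 0.0549 in edgeR. For H-151 against PBS the log2 fold change of Myh8 was -0.14 ± 0.39. Without PBS replicate 3 it was -0.50, with an unadjusted p of 0.0153 in edgeR and a rank of 41 among 14252 genes. Across 11 alternatives it ran from -0.50 to 0.18, and 8 kept the sign.

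Myh3, the embryonic heavy chain, did not show that separation. It was at 30.3, 27.5 and 31.8 CPM in H-151, at 22.0, 36.5 and 16.1 CPM in PBS and at 22.5, 31.3 and 45.3 CPM in SR-717. SR-717 held its highest library and PBS its lowest, with H-151 in between and all groups overlapping. The log2 fold changes were 0.14 ± 0.26 for SR-717 against H-151, 0.41 ± 0.38 for SR-717 against PBS and 0.26 ± 0.29 for H-151 against PBS. In edgeR the last was 0.65 without PBS replicate 2 (unadjusted p of 0.0154) and 0.03 without PBS replicate 3 (unadjusted p of 0.914). The first was -0.16 without SR-717 replicate 3 and the second 0.17 without PBS replicate 3.

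Myl4, a light chain of embryonic muscle and of the heart's atria, was at 85.5, 84.7 and 92.2 CPM in H-151, at 68.4, 96.6 and 48.8 CPM in PBS and at 80.5, 82.2 and 110.2 CPM in SR-717. PBS again spanned most of the range. The log2 fold changes were 0.05 ± 0.16, 0.35 ± 0.28 and 0.30 ± 0.24. In edgeR the last was 0.59 without PBS replicate 2 (unadjusted p of 0.0198) and 0.08 without PBS replicate 3 (unadjusted p of 0.663). The first was -0.11 without SR-717 replicate 3 and the second 0.14 without PBS replicate 3. Transcripts that mark heart muscle were at or near 0: Nppa was 0 in 9 of 9 libraries, Nkx2-5 and Myl7 were 0 in 8, Nppb was 0 in 7, Myh6 reached at most 0.964 TPM and Tnni3 at most 1.91 TPM. Myl3, which slow skeletal fibres share with the heart, was at 37.9 to 226.7 TPM.

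Ncam1, an adhesion molecule of regenerating and denervated fibres that nerve and Schwann cells carry too, ran differently from the rest. It was at 59.0, 53.1 and 54.0 CPM in H-151, at 76.5, 46.2 and 62.1 CPM in PBS and at 50.9, 59.9 and 61.0 CPM in SR-717. Its highest library was PBS replicate 1 and its lowest PBS replicate 2, so PBS replicate 3 was not the lowest library as it was for the other 9 genes, and the groups overlapped. The log2 fold changes were 0.04 ± 0.13, -0.10 ± 0.22 and -0.15 ± 0.20. The first was -0.01 without SR-717 replicate 3 and the second 0.08 without PBS replicate 1. Across 11 alternatives the last ran from -0.31 to 0.04.

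**Figure D1:**
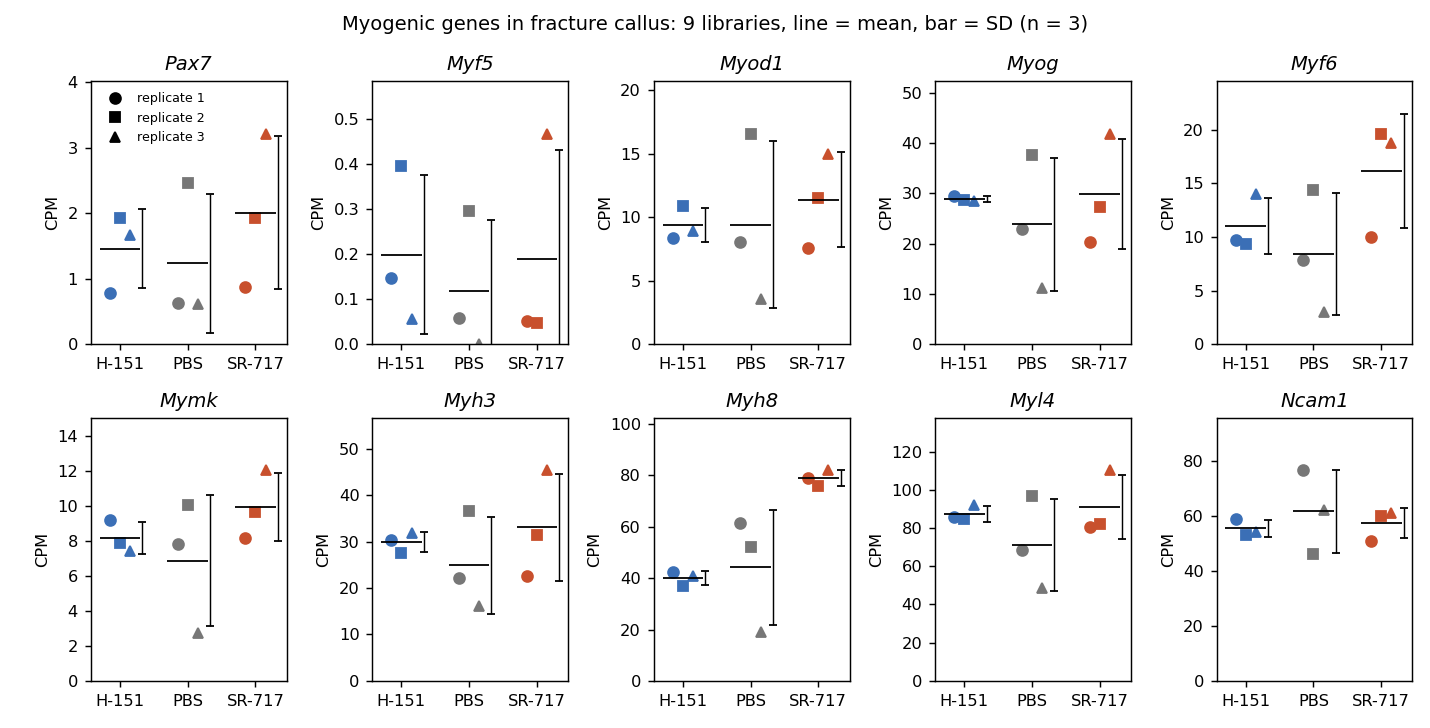
Level of each of the 10 genes in CPM (vertical axes, from 0) in the 3 libraries of each group (horizontal axes), with lines at the group mean and bars of 1 SD (n = 3). The SR-717 libraries of Myh8 sit between 75.7 and 81.9 CPM, above the 6 others, while the groups overlap for the other 9 genes and PBS replicate 3 is lowest for 9 of 10.

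Of the 9 members tested, 1 passed an unadjusted p under 0.05 with a fold change of at least 1.5 for SR-717 against H-151, the thresholds used in the study, where 0.756% of all tested genes passed (107 of 14151). That gene was Myh8, and its groups did not overlap, as in 2.67% of all tested genes with SR-717 above. All 9 fitted log2 fold changes were above 0, as were 53.4% of those of all tested genes, with a median of 0.27 against 0.02 over all tested genes. Without SR-717 replicate 3, 4 of 9 were above 0, against 50.5% of tested genes, and the median was -0.01. In that fit Myh8 alone of the members passed, at a log2 fold change of 0.94, among 661 genes (4.60%). Without SR-717 replicate 1, the library with the high inflammatory genes, 2 members passed, Myh8 at 0.97 and Myf6, among 150 genes (1.05%).

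For SR-717 against PBS, 0 of the 9 members passed, where 0.519% of tested genes did (73 of 14070). Myh8 was also here the single member whose groups did not overlap, against 1.49% of tested genes with SR-717 above. Fold changes of 8 of 9 members were above 0, with Ncam1 the exception, against 52.2% of all tested genes, and the median was 0.41 against 0.01 over all genes. Without PBS replicate 3, 6 of 9 were above 0, against 56.4% of all tested genes, and the median was 0.15. In that fit 0 members passed, against 0.661% of tested genes. Without PBS replicate 1, 9 of 9 were above 0, against 50.4% of tested genes, and the member Myh8 passed, among 0.823%. Without PBS replicate 2 the member Myf6 passed, among 1.82% of tested genes. With the replicate number as a block, 3.15% of genes passed (443) and 0 members.

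For H-151 against PBS, 0 of the 9 members passed, where 0.426% of tested genes did (60 of 14085). Fold changes were above 0 for 6 of 9 members and 44.2% of all tested genes, with Myod1, Myh8 and Ncam1 below 0, and the median was 0.25 against -0.02 over all genes. Without PBS replicate 3 the same count was 2 of 9, Myh3 and Myl4, against 50.5% of all tested genes, with a median of -0.10. In that fit 0 members passed, against 1.07% of tested genes. With the replicate number as a block 1.86% of genes passed (262) and 0 members, and without PBS replicate 2 the members Myh3 and Myl4 passed, in a fit where 698 genes did (4.91%). The 3 comparisons share their groups, so they are not independent. No gene of the table reached an adjusted p under 0.05 in edgeR in any of them, with 146, 97 and 91 genes at an unadjusted p under 0.05 in the order given, and DESeq2 called 1 gene, Myh8 for SR-717 against H-151. Adjusted p-values of the members ran from 0.996 to 0.998 for SR-717 against H-151 and were 1 in both other comparisons.

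**Figure D2:**
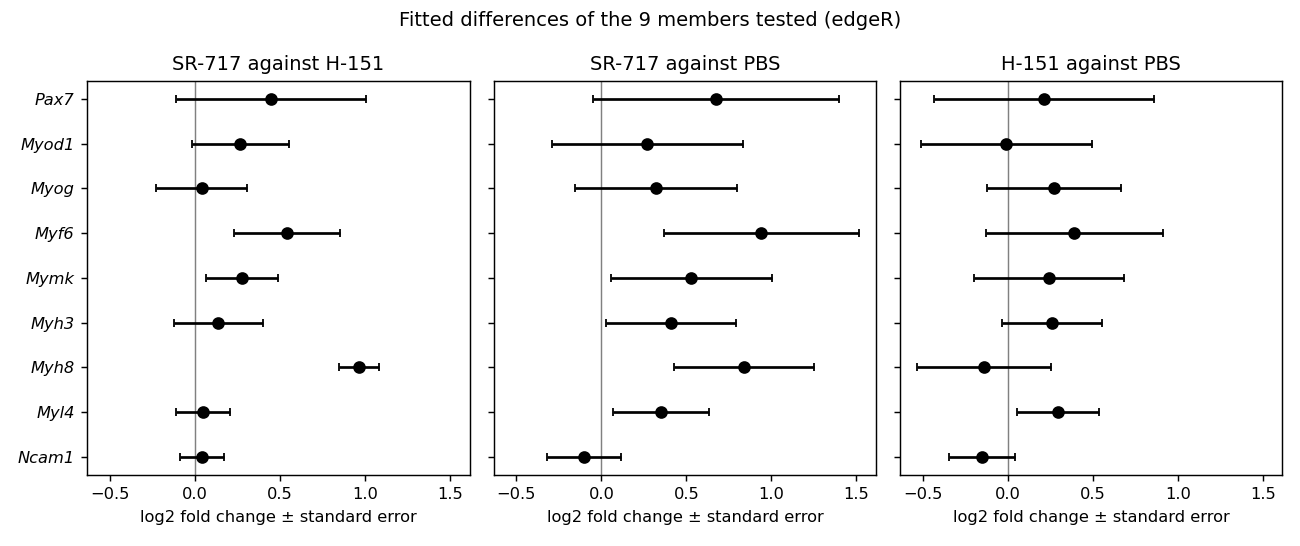
Fitted log2 fold change (horizontal axes) of the 9 members tested, with bars of 1 standard error, for SR-717 against H-151, SR-717 against PBS and H-151 against PBS. Myh8 stands at 0.97 ± 0.12 in the first panel and at 0.84 ± 0.41 in the second, while its value in the third is -0.14 ± 0.39.

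Myh3 and Myh8 stand in the same cluster of genes on chromosome 11 (GRCm38, plus strand), Myh3 at 67078300 to 67102291 and Myh8 at 67277124 to 67308634. The 174832 bp between them hold the adult genes Myh2, Myh1 and Myh4. Their ratio within a library does not depend on how the library is scaled, and it was examined after the values had been seen. The TPM of Myh8 was 1.39, 1.33 and 1.29 times that of Myh3 in H-151, 2.74, 1.42 and 1.17 times in PBS and 3.48, 2.40 and 1.79 times in SR-717. Every SR-717 library was above every H-151 library, and PBS overlapped both. The highest ratios in PBS and SR-717 were those of the replicates numbered 1, the libraries with the high inflammatory genes, whose part in the ratio was not tested.

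Both developmental chains were minor beside the adult ones. Of the summed TPM of 6 heavy chains (Myh1, Myh2, Myh3, Myh4, Myh7 and Myh8), Myh3 and Myh8 together made 1.79% ± 0.495 in H-151, 2.43% ± 0.929 in PBS and 2.48% ± 1.09 in SR-717 (SD, n = 3). The libraries gave 2.29%, 1.30% and 1.77% in H-151, 2.23%, 1.62% and 3.44% in PBS and 3.74%, 1.88% and 1.82% in SR-717. The groups overlapped, and the highest shares were in SR-717 replicate 1 and PBS replicate 3, the libraries with the least adult heavy chain. Myh4, the chain of the fastest fibres, was at 691, 1022 and 594 TPM in H-151, at 912, 1089 and 175 TPM in PBS and at 539, 961 and 1305 TPM in SR-717, and Myh8 was 1.12% to 4.01% of it. As a percentage of Myh4, Myh8 overlapped between H-151 (1.12% to 2.07%) and SR-717 (1.93% to 4.01%). The expected counts of Myh8 were not whole in 9 of 9 libraries, those of Myh3 in 3 and those of the other members in 0, so where reads match several of these closely similar genes the split among them is uncertain.

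**Figure D3:**
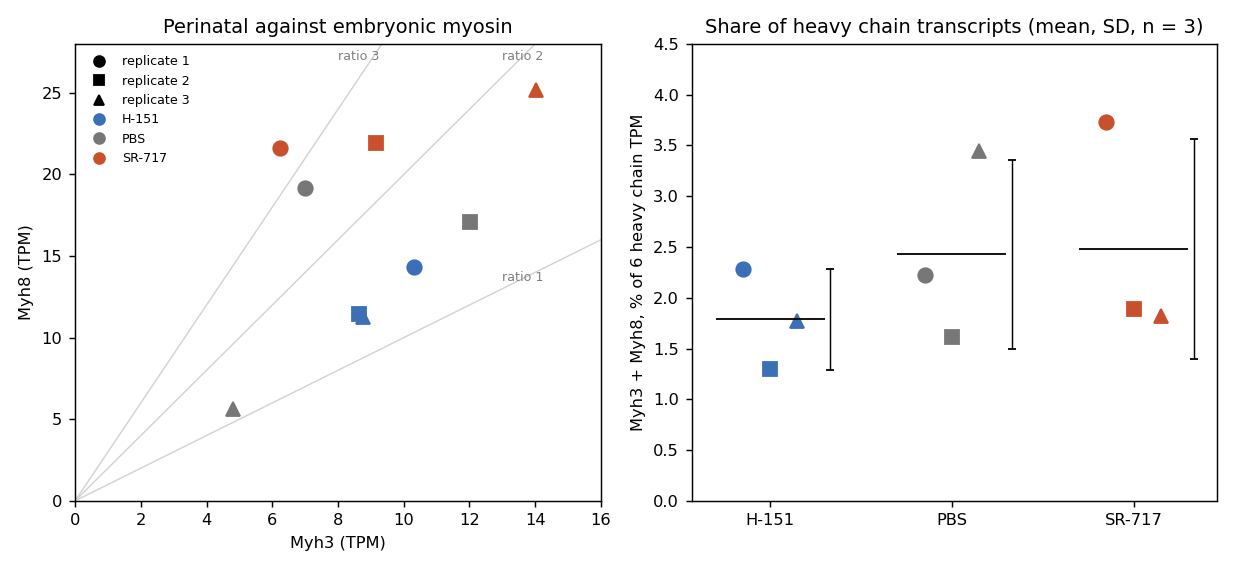
Left, TPM of Myh8 against TPM of Myh3 in each of the 9 libraries, with grey lines at fixed ratios; right, the share of Myh3 and Myh8 in the summed TPM of 6 heavy chains by group, with the mean and 1 SD (n = 3). Ratios in H-151 reach 1.39 at most and those in SR-717 start at 1.79, while the shares of the groups overlap.

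The stretches before the start sites of Myog, Myh3 and Myh8 are shown because Myog and Myh3 followed each other over the libraries and Myh8 did not follow them closely. Each is the 250 bases before the start in RefSeq (GRCm38.p6, plus strand), 5′ to 3′. Capitals mark 2 motifs: CANNTG, the E-box that MyoD family factors bind, which reads the same on both strands, and CTANNNNTA on either strand, a loose spelling of the A/T-rich element bound by MEF2 factors. Myog is from chr1:134289754-134290003, Myh3 from chr11:67078050-67078299 and Myh8 from chr11:67276874-67277123.
Myog: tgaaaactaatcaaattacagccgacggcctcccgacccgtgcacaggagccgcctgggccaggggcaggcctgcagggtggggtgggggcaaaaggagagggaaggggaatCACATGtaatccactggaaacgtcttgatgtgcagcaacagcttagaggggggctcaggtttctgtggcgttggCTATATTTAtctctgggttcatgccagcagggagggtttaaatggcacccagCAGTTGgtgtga
Myh3: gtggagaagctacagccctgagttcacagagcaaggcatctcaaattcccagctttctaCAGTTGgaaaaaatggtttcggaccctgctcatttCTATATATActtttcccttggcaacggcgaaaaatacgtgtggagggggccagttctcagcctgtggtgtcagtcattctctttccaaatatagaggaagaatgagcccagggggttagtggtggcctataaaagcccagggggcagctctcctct
Myh8: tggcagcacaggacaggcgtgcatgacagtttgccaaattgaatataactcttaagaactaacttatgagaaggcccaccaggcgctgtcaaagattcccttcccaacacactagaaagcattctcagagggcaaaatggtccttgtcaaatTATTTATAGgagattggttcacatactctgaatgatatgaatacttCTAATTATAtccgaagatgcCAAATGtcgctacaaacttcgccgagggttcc
Myog had E-boxes 138 to 133 and 12 to 7 bases before its start and an A/T-rich match at 64 to 56. Myh3 had 1 E-box at 191 to 186 and 1 A/T-rich match at 156 to 148, and Myh8 had 1 E-box at 32 to 27 and A/T-rich matches at 98 to 90 and 52 to 44. RefSeq windows were found for 6 of the 10 members, of which 3 held an E-box and 4 held the A/T-rich letters. Over all 32851 windows of this length, 66.2% held an E-box and 19.0% the A/T-rich letters, so a match is a description of the sequence only.

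Most members varied between libraries along with the summed level of adult muscle genes. The summed TPM of 23 mature fast muscle genes, among them Acta1, Mylpf and Myl1, was 27260 to 40587 in H-151, 9843 to 41920 in PBS and 17802 to 52163 in SR-717. Its highest library, SR-717 replicate 3, was also highest for 7 of 10 members in CPM, and its lowest, PBS replicate 3, was lowest for 9 of 10, though for Pax7 by only 0.618 against 0.628 CPM. None of the 23 genes passed the thresholds in any comparison with all libraries of its groups. Their fold changes were above 0 in 20 of 23 for SR-717 against H-151, in 23 for SR-717 against PBS and in 23 for H-151 against PBS. Over all tested genes the shares were 53.4%, 52.2% and 44.2%. The medians of the 23 were 0.15, 0.55 and 0.37. Without SR-717 replicate 3 the first count was 5 of 23, against 50.5% of all tested genes. Without PBS replicate 3 the others were 21 and 13, against 56.4% and 50.5%. In fits with 1 library left out, 2 of the 23 passed for SR-717 against H-151 without SR-717 replicate 1, among 1.05% of tested genes. For H-151 against PBS without PBS replicate 2, 4 passed, among 4.91%. In whole tissue, fewer cells of a type and less RNA per cell cannot be told apart.

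Set against 100000 TPM of those fast muscle genes, Myod1, Myog, Myf6, Mymk and Pax7 varied less between libraries. Myf5, at 0 in PBS replicate 3, had no such ratio. The highest library was 5.14 times the lowest for Myod1 in TPM and 1.70 times after this scaling, 3.93 and 1.79 times for Myog, 6.60 and 2.14 times for Myf6, 4.58 and 2.07 times for Mymk and 5.45 and 2.01 times for Pax7. Myh3 went from 2.93 to 2.29 times, Myl4 stayed at 2.36 times, Myh8 went from 4.48 to 4.30 times, and Ncam1 widened from 1.67 to 4.95 times. After the scaling Myh8 was at 52.5, 28.3 and 35.3 in H-151, at 69.9, 40.8 and 57.1 in PBS and at 122, 56.7 and 48.3 in SR-717. The SR-717 and H-151 ranges then overlapped, with H-151 replicate 1 above SR-717 replicate 3. Myh8 thus separated SR-717 from H-151 in CPM and relative to Myh3, and overlapped relative to the fast muscle genes.

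**Figure D4:**
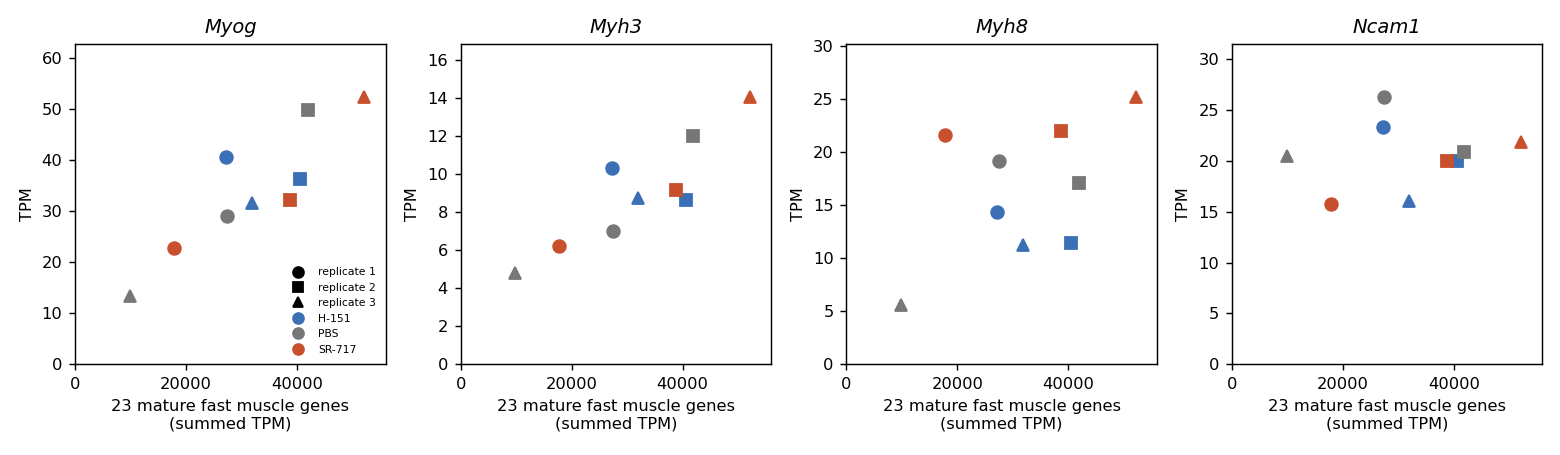
TPM of Myog, Myh3, Myh8 and Ncam1 (vertical axes, from 0) against the summed TPM of 23 mature fast muscle genes (horizontal axes) in the 9 libraries. Myog and Myh3 are lowest in PBS replicate 3, where the sum is 9843, and highest in SR-717 replicate 3, where it is 52163, while Ncam1 stays between 15.7 and 26.3 TPM.

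Likeness between genes was measured by Pearson's r of log2 CPM over the 9 libraries, across 14293 genes, as a description with no test, since the points share libraries, depth and muscle content. Nearest to Myog were Rapsn (0.99), which anchors acetylcholine receptors at the nerve ending, Synpo2l (0.99), Vgll2 (0.98), a co-factor of muscle gene control, Cacnb1 (0.98), the calcium channel subunit of fibres, and Itga7 (0.98), the laminin receptor of muscle. Nearest to Myh3 were Slc41a3 (0.97), Rapsn (0.97), Ttbk1 (0.97), Ppp1r12b (0.96) and Asb10 (0.96). Among the members, Myog had an r of 0.96 with Myh3, 0.96 with Myl4, 0.95 with Myod1 and 0.92 with Mymk. Myh8 had an r of 0.56 with Myh3 and 0.84 with Mymk, and Ncam1 was below 0 with the 8 others tested, from -0.48 with Pax7 to -0.002 with Myh8.

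The surrounding pathway was read from other gene lists, chosen with results of these data known, and no gene of the next 6 passed the thresholds in any comparison. The satellite cell and progenitor genes (7 of 8 tested) had median log2 fold changes of -0.01, -0.02 and 0.17 for SR-717 against H-151, SR-717 against PBS and H-151 against PBS. Among their most abundant genes were Itga7 at 16.6 to 50.9 TPM and Heyl, a Notch target, at 8.24 to 31.7 TPM. Pax3, the embryonic relative of Pax7, had 4 expected counts over all libraries and was not tested. The MEF2 factors and Vgll2 (4 of 4 tested) had medians of -0.07, -0.06 and 0.00, with Mef2d at 50.9 to 83.8 TPM, Mef2c at 31.7 to 129.1 TPM and Mef2a at 19.6 to 38.3 TPM.

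Inhibitors of the myogenic factors (7 of 7 tested) had medians of 0.07, -0.11 and -0.09. The Id proteins among them capture the partners of MyoD family factors, and the most abundant were Id3 at 157.7 to 550.8 TPM, Id1 at 85.7 to 143.4 TPM and Mdfi, which holds those factors outside the nucleus, at 29.1 to 118.9 TPM. The fusion and membrane genes (5 of 5 tested) had medians of 0.05, 0.09 and 0.03, with the membrane repair proteins Myof at 44.7 to 96.6 TPM and Dysf at 13.7 to 23.8 TPM and the caveolin Cav3 at 13.3 to 55.0 TPM.

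The embryonic and slow sarcomere genes (8 of 8 tested) had medians of -0.10, 0.29 and 0.38. Actc1, the actin of heart and of young skeletal muscle, was at 91.7 to 739.9 TPM, Tnnt1 at 44.6 to 180.4 TPM and Mybpc1 at 33.6 to 145.9 TPM. The genes of the neuromuscular junction (7 of 7 tested) had medians of 0.24, 0.41 and 0.13, with the acetylcholine receptor subunits Chrnb1 at 5.25 to 20.4 TPM and Chrna1 at 2.83 to 15.0 TPM and Rapsn at 3.37 to 9.17 TPM. Of the 6 limb heavy chains, Myh8 alone passed the thresholds, for SR-717 against H-151, where the log2 fold changes of the adult chains were 0.33 ± 0.35 for Myh4, 0.41 ± 0.48 for Myh1, -0.06 ± 0.67 for Myh2 and -0.12 ± 0.66 for slow Myh7.

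Transcripts of other cells moved between libraries too, and their part in the values above was not tested. The summed TPM of 11 erythroid genes was 9976 to 41255 in H-151, 1295 to 29677 in PBS and 2100 to 21843 in SR-717. Fold changes were above 0 for 0 of 11 genes for SR-717 against H-151, 9 for SR-717 against PBS and 11 for H-151 against PBS. Over all tested genes the shares above 0 were 53.4%, 52.2% and 44.2%, and 0 of the 11 were called in any comparison. The 9 Schwann and nerve genes, which bear on Ncam1, summed to 55.4 to 104.2 TPM in H-151, 36.3 to 92.1 TPM in PBS and 40.3 to 75.4 TPM in SR-717, with 0 called in any comparison. The 10 callus genes of cartilage and bone summed to 5123 TPM in SR-717 replicate 1, the lowest, and to 17871 TPM in PBS replicate 3, the highest, and 0 were called. Of the 9 inflammatory genes tested for SR-717 against H-151, 4 passed in edgeR, against 0.756% of all tested genes. These were Nos2, Tnf, Il1a and Cxcl3, with fold changes above 0. With DESeq2's Wald test on the same libraries 0 of the 9 passed, against 1.48% of tested genes. With the replicate block 1 passed, against 1.01%. Only Nos2 had every SR-717 library above every H-151 library, as in 2.67% of all tested genes. The list summed to 3602 TPM in SR-717 replicate 1 but to 72.6 and 67.2 in replicates 2 and 3, within the 38.3 to 183 of H-151. Without SR-717 replicate 1, 4 of 9 had fold changes above 0, against 48.7% of all tested genes. In that fit 1 of the 9 passed, against 1.05% of tested genes. Also without SR-717 replicate 1, the log2 fold change of Myh8 for SR-717 against H-151 was 0.97, as with it.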

How the data were processed

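Poly(A) RNA libraries, strand-specific and paired-end per the labels, were sequenced by a contract laboratory. The extraction text of the labels speaks of cell lines, while the study's methods name callus. The authors deposited 1 table with expected counts (estimated counts per gene, 8.91% not whole) and TPM for the 9 libraries. The submitters' processing notes name the build mm10; the aligner and counter are not given in the sources used here. The deposited TPM values were used as given to compare genes, and annotation columns were not used.

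Expected counts were rounded, filtered with filterByExpr (minimum 10 per library, 15 in total), scaled by TMM and fitted in edgeR 4.0.16 (R 4.3.3) by quasi-likelihood for each pair of groups, without covariates. The thresholds were an unadjusted p of 0.05 and a fold change of 1.5; adjusted p-values are Benjamini-Hochberg over all tested genes. DESeq2 1.42.0, other scaling, no filter, a block and omission of each library were tried. The scripts were tested on simulated data. Gene positions came from GENCODE M21 by Ensembl identifier.

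The members and gene lists were chosen with earlier results of these data known. Named genes are the 10 members, from each other list the 3 with the highest mean TPM, those past the thresholds (at most 5) and those at 0 throughout, and the 5 nearest to Myog and to Myh3; cardiac, heavy chain and other genes beyond this rule were named after their values were seen. Samples were grouped by the treatment label and numbered by their titles. Same-numbered libraries deviated together for SR-717 against PBS (r of 0.65, 0.34 and 0.14) and H-151 against PBS (0.30, 0.49 and 0.50). No label states what a number shares, so the main fits left the libraries unpaired. The replicate block was fitted as an alternative. No libraries were duplicates: the smallest chi-square per gene over 36 pairs was 25.8. The untreated time course and the histology were not analysed here. A gene that the naming rule selects is not reported here.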

Additional observations from a re-analysis of the deposited data

How the results depend on the processing

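Of 306 refitted log2 fold changes of the members, 280 kept their sign and 26 did not. The largest move was Pax7 for H-151 against PBS, 1.23 without PBS replicate 2. For SR-717 against H-151, 107 genes passed, and 209 with DESeq2, 223 without the filter and 171 with all 9 libraries in 1 fit; DESeq2 gave 1 gene at an adjusted p under 0.05. Leaving out 1 library gave 64 genes without H-151 replicate 2 (0.448% of tested genes) to 661 without SR-717 replicate 3 (4.6%). It gave 384 without SR-717 replicate 2 (2.69%), and 1 to 2 members passed in a fit. For SR-717 against PBS, 73 genes passed, and 138 with DESeq2 and 194 without the filter. All 9 libraries in 1 fit gave 176 genes (1.23% of tested genes) and 1 member. With both libraries numbered 1 left out, chosen after seeing the data, 118 genes passed. Leaving out 1 library gave 95 (0.661% of tested genes) to 319 genes (2.22%), the most without SR-717 replicate 3. It gave 118 without PBS replicate 1 (0.823%) and 259 without PBS replicate 2 (1.82%), with 0 to 1 members. For H-151 against PBS, 60 genes passed, and 127 without the filter. Leaving out 1 library gave 43 (0.302% of tested genes) to 698 genes (4.91%), the most without PBS replicate 2. It gave 99 without H-151 replicate 3 (0.695%), 115 without PBS replicate 1 (0.808%) and 153 without PBS replicate 3 (1.07%). In these fits 0 to 2 members passed. The cause was not tested.

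The replicate block gave 443 genes for SR-717 against PBS and 262 for H-151 against PBS, and changed no member's call. For SR-717 against H-151 the same-numbered libraries did not all deviate together (r of 0.34, 0.06 and 0.08), and the block gave 143 genes; 8 of 9 libraries matched best with their own number. The developmental myosin share by group was 1.80%, 2.44% and 2.51% from expected counts for H-151, PBS and SR-717, and ran from 1.54% to 2.03%, 1.92% to 2.83% and 1.85% to 2.81% with 1 library left out. Low counts limit Myf5 and Pax7, and 3 libraries a group limit every comparison.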
